A study of Mus musculus with 7 samples.

Results

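The genes of cholesterol synthesis, of the Srebf2 control loop that sets its pace, and of sterol transport were described in livers in which Dicer1 was to be deleted from hepatocytes. The set was defined by gene name as 28 genes, of which 24 had a row in the array table, out of 16819 named genes in all. Idi1, Acat2, Soat1 and Soat2 had no row under that symbol and were not analysed here. Sc4mol is given under its newer symbol, Msmo1. Each of the 24 genes had 1 probe set.

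All 7 arrays measured whole liver RNA of male Dicer1 fl/fl mice on a mixed background of 129S4 and C57BL/6. At an age of 8 to 10 weeks mice were given AAV8-Ttr-Cre, a virus of the adeno-associated kind that carries Cre under the transthyretin promoter, which is active in hepatocytes, and they went without food for 4 hours before the liver was taken. The groups were 0 weeks (the control, 3 arrays), 2 weeks after the virus (2 arrays) and 4 weeks after the virus (2 arrays). The controls carry the same floxed alleles, and the labels do not say whether they too were injected. The labels describe neither mice given a virus without Cre nor control mice taken at 2 or 4 weeks, so effects of the virus, of Cre, of Dicer1 loss and of the time since injection cannot be told apart. Since whole liver was measured, fewer cells of a type and less RNA per cell cannot be told apart either.

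Cholesterol is built from acetyl-CoA through mevalonate, isoprenoid diphosphates, squalene and a chain of sterol intermediates. Most enzymes of this chain are transcribed under SREBP-2, the product of Srebf2, a membrane-bound factor that the escort protein Scap carries to the Golgi for cleavage when sterols are low, and that the Insig proteins hold in the endoplasmic reticulum when sterols are high. The liver makes much of the body's cholesterol, exports it in lipoproteins and converts it to bile acids. Srebf2 also hosts the microRNA miR-33 in an intron, and Dicer, the enzyme that cuts microRNA precursors to mature microRNAs, is the product of the deleted gene.

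The mature miR-33 strands are shown because several genes that miR-33 is reported to repress are read below with the members. They are given 5′ to 3′ from RefSeq (GRCm38.p6, plus strand), with the seed, bases 2 to 8, in capitals, and both lie within the span of the Srebf2 gene. miR-33-5p is at chr15:82198127-82198147 and miR-33-3p at chr15:82198167-82198188. The arrays measured no mature microRNA.
mmu-miR-33-5p: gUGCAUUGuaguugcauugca
mmu-miR-33-3p: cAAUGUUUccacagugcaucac

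The values are log2 signals as deposited. A level is comparable between arrays but, as an amount of RNA, not between genes. Dicer1 itself was at 8.73, 8.71 and 8.58 in the control livers, 8.03 and 7.79 in the 2 week livers, and 7.97 and 8.05 in the 4 week livers. It fell 1.70-fold at 2 weeks (adjusted p = 0.0158) and 1.58-fold at 4 weeks (adjusted p = 0.0159) in the limma fit, with no overlap between the control arrays and the others. Whether its probes lie inside the floxed stretch was not looked up, as no probe positions were used here. The 9 measured hepatocyte markers, among them Alb (14.46 to 14.52 over all arrays), lay at or above the 96.0th percentile of all genes' mean signal. The first principal component of the arrays held 62.0% of the variance and put the control arrays at -23.8 to -22.4, the 2 week arrays at 6.56 and 24.3, and the 4 week arrays at 18.4 and 19.8, so replicate 1 at 2 weeks lay nearer to the controls than the other 3 arrays after the virus.

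After Cre, the SREBP regulator Insig2 rose almost to the same level at both times, the late endosomal cholesterol exporter Npc1 rose, and the NPC1-binding membrane protein Tmem97 fell. At 4 weeks the isoprenoid enzyme Ggps1 also rose and the sterol isomerase Ebp fell. The other 19 genes did not pass the test, and among the enzymes the arrays of a group differed from each other by more than most genes did.

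A gene was called where its adjusted p, from limma with Benjamini-Hochberg adjustment over all 16819 genes, was under 0.05. At 2 weeks against 0 weeks, 3 of the 24 genes were called (12.5%), against 5.93% of all genes. Higher calls were 2 of them, Insig2 and Npc1 (3.46% of all genes were called higher), and the lower call was Tmem97 (2.47% of all genes were called lower). At 4 weeks against 0 weeks, 5 of the 24 were called (20.8%), against 9.77% of all genes. Of these, Insig2, Npc1 and Ggps1 were higher (5.15% of all genes) and Tmem97 and Ebp were lower (4.62% of all genes). The median log2 fold change of the 24 genes was -0.08 at both times, and that of all genes was -0.00 at 2 weeks and 0.01 at 4 weeks. The same 5 genes were called when the mean of 2 and 4 weeks was set against 0 weeks, where 12.9% of all genes were called, 6.79% higher and 6.12% lower. Only Insig2 was called at either time when any 1 control array was left out of the fit. Of all genes, 41 to 190 were then called at 2 weeks, against 997 with every array. At 4 weeks 294 to 457 were called, against 1643.

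**Figure D1:**
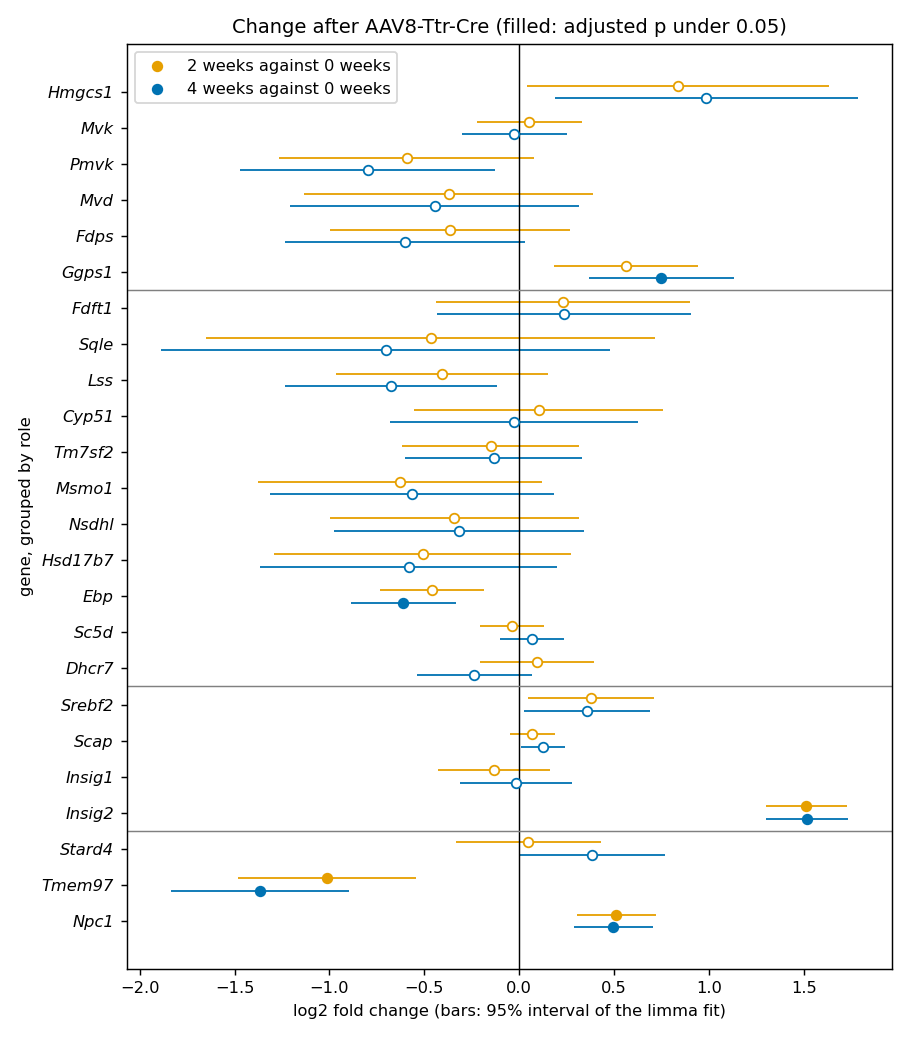
Log2 fold change of each of the 24 genes at 2 weeks and at 4 weeks against 0 weeks, with the 95% interval of the limma fit; filled points passed an adjusted p of 0.05. Insig2 stands at 1.51 and 1.52 with narrow intervals, Tmem97 at -1.01 and -1.37, and most synthesis enzymes lie below 0 with intervals that mostly reach across it.

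The first committed product, mevalonate, is made from HMG-CoA, which Hmgcs1, the cytosolic HMG-CoA synthase, supplies. Its log2 signal was 11.22, 10.88 and 10.30 in the control livers, 11.96 and 11.31 in the 2 week livers, and 11.62 and 11.95 in the 4 week livers. All 4 arrays after Cre were higher than the 3 control arrays, which themselves spread widely. The log2 fold change was 0.84 at 2 weeks (SE 0.32, adjusted p = 0.199) and 0.99 at 4 weeks (SE 0.32, adjusted p = 0.126), neither of which passed. Its promoter is shown since it is the only member window with a match to the core of the sterol response element. Searched on both strands of the RefSeq windows from 250 bases before to 50 after each gene's start (GRCm38.p6), the core TCACNCCAC was found in 1 of the 19 measured genes with a window, Hmgcs1, and in 1.44% of the 27025 genes that have one. In the Hmgcs1 window, chr13:119690101-119690400 on the plus strand, that match begins 137 bases before the start. Capitals mark it and 4 matches to the CCAAT box, all of which lie on the opposite strand and read ATTGG here. The CCAAT box is the site of NF-Y, a factor that acts with SREBP at many sterol genes.
Hmgcs1 promoter: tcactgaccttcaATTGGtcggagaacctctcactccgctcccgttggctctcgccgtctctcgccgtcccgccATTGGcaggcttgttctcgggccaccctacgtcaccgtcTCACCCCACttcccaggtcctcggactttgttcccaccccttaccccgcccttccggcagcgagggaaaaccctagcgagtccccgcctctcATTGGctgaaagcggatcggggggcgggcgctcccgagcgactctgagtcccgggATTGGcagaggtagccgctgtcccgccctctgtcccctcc

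The next enzymes turn mevalonate into activated isoprenoids. Pmvk, phosphomevalonate kinase, was at 9.19, 8.54 and 8.87 in the control livers, 8.64 and 7.90 in the 2 week livers, and 7.99 and 8.14 in the 4 week livers. The 4 week arrays lay below every control array, and replicate 1 at 2 weeks lay within the controls' range. Its log2 fold change was -0.59 at 2 weeks (adjusted p = 0.267) and -0.80 at 4 weeks (adjusted p = 0.137), so it did not pass. Mvd, the decarboxylase that follows, was -0.37 and -0.45 on the same scale at 2 and 4 weeks, and Fdps, which makes farnesyl diphosphate, was -0.37 and -0.60. Mvk, mevalonate kinase, was 0.05 at 2 weeks (95% interval -0.22 to 0.33) and -0.03 at 4 weeks (-0.30 to 0.25). None of these 3 passed.

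Ggps1, which extends farnesyl diphosphate to the geranylgeranyl diphosphate used for protein prenylation rather than for sterols, was the enzyme of this stretch that passed the test. Its log2 signal was 7.76, 7.87 and 7.74 in the control livers, 8.14 and 8.56 in the 2 week livers, and 8.37 and 8.70 in the 4 week livers. Every array after Cre was above every control array. At 4 weeks Ggps1 rose 1.68-fold (log2 0.75, SE 0.15, adjusted p = 0.0406), and at 2 weeks it stood at 0.56 (SE 0.15, adjusted p = 0.0961). With any 1 control or 4 week array left out, the 4 week value ranged from 0.58 to 0.91 and its adjusted p from 0.0945 to 0.182. Of the 6 measured mevalonate and isoprenoid genes, 0 passed at 2 weeks, where 5.93% of all genes were called, and 1 rose at 4 weeks, where 5.15% of all genes were called higher. Their median log2 fold changes were -0.16 and -0.24.

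Squalene is formed by Fdft1 and oxidised by Sqle, the flavoprotein step before ring closure. Fdft1 was at 11.56, 11.10 and 11.41 in the control livers, 11.99 and 11.19 in the 2 week livers, and 11.43 and 11.76 in the 4 week livers. The groups overlapped, and its log2 fold changes of 0.23 and 0.24 did not pass. Sqle was at 10.57, 10.00 and 10.13 in the control livers, 10.35 and 9.18 in the 2 week livers, and 8.94 and 10.11 in the 4 week livers. At each time after Cre 1 array was near the controls and the other well below them, which gave a within-group standard deviation (SD) of 0.622, at the 99.5th percentile of all genes. Its log2 fold changes were -0.47 at 2 weeks (95% interval -1.65 to 0.72) and -0.70 at 4 weeks (-1.89 to 0.48).

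Lss closes the squalene epoxide into lanosterol. It was at 9.57, 9.09 and 9.32 in the control livers, 9.23 and 8.60 in the 2 week livers, and 8.54 and 8.77 in the 4 week livers, so the 4 week arrays lay below the controls. The log2 fold change was -0.41 at 2 weeks (adjusted p = 0.352) and -0.67 at 4 weeks (adjusted p = 0.133). The next enzymes strip the methyl groups from lanosterol and reduce the ring. Msmo1, the sterol methyl oxidase, was -0.63 at 2 weeks and -0.57 at 4 weeks, and Hsd17b7, the ketone reductase of the same cycle, was -0.51 and -0.58. Nsdhl, the decarboxylating dehydrogenase, was -0.34 and -0.32. Cyp51, the lanosterol demethylase, was 0.10 and -0.03, and Tm7sf2, a sterol reductase, was -0.15 and -0.13. None of the 5 passed, and at both times their 95% intervals included 0.

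Ebp, which moves the ring double bond on the way to lathosterol, was the sterol enzyme that fell. Its log2 signal was 11.31, 11.16 and 11.31 in the control livers, 10.96 and 10.64 in the 2 week livers, and 10.72 and 10.58 in the 4 week livers. The arrays after Cre lay below all controls. At 4 weeks Ebp fell 1.53-fold (log2 -0.61, SE 0.11, adjusted p = 0.0303). At 2 weeks its log2 fold change was -0.46 (SE 0.11, adjusted p = 0.0733). With any 1 control or 4 week array left out, the adjusted p at 4 weeks was 0.0774 to 0.157, at log2 values of -0.68 to -0.54. The last enzymes measured, Sc5d, the lathosterol oxidase, and Dhcr7, which makes the last reduction to cholesterol, did not pass. Sc5d lay between 11.93 and 12.14 on all 7 arrays, with log2 fold changes of -0.04 and 0.07. Dhcr7 was 0.09 at 2 weeks and -0.24 at 4 weeks. Of the 11 squalene and sterol enzymes, 0 passed at 2 weeks, where 5.93% of all genes were called, and 1 fell at 4 weeks, where 4.62% of all genes were called lower. A log2 fold change below 0 was found for 8 of the 11 at 2 weeks and 9 at 4 weeks (medians -0.34 and -0.32), against 8716 and 7951 of all 16819 genes.

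**Figure D2:**
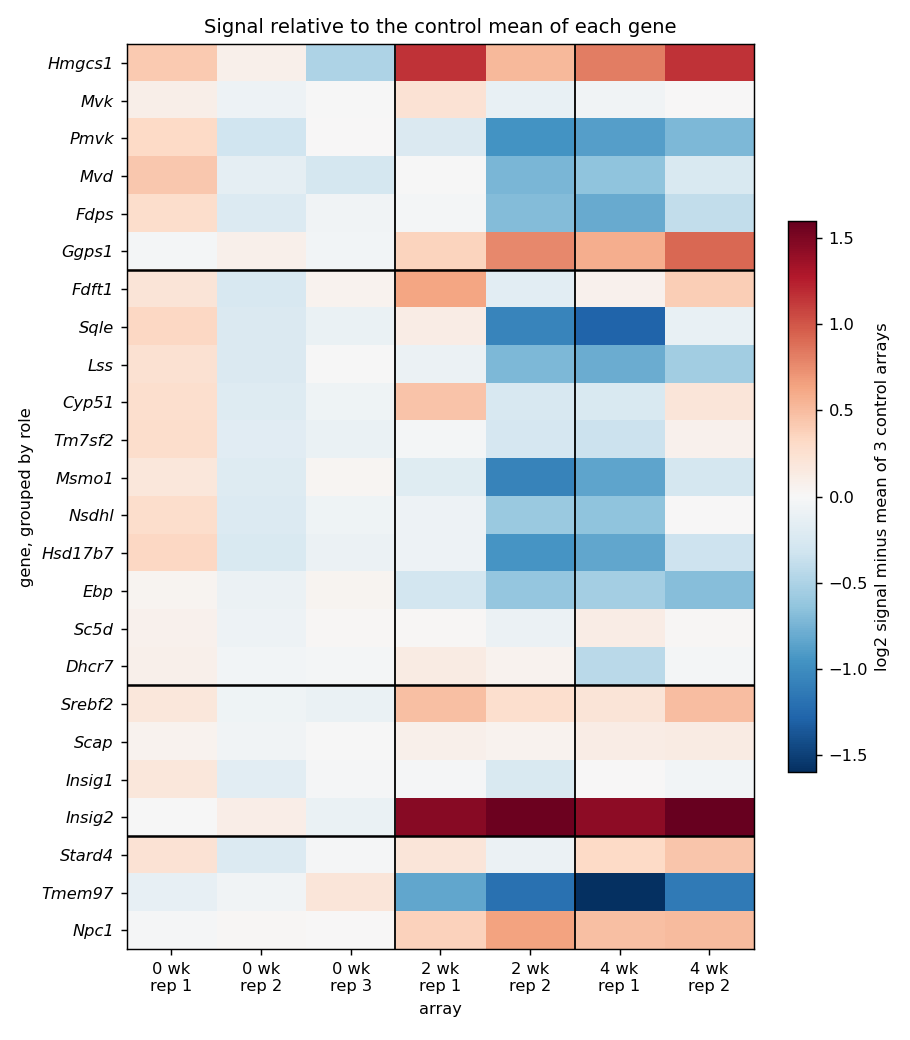
Log2 signal of each of the 24 genes (vertical axis, grouped by role) on each of the 7 arrays (horizontal axis), less that gene's mean over the 3 control arrays. Most rows of synthesis enzymes turn blue together on replicate 2 at 2 weeks and replicate 1 at 4 weeks, while Insig2 is raised and Tmem97 lowered on all 4 arrays after Cre.

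The spread among arrays of a group was wide across the synthesis enzymes. The 17 synthesis enzymes had a median within-group SD of 0.342, against 0.0950 for all genes, and 12 of the 17 lay above the 90th percentile of all genes. The 7 regulators and transport genes had a median of 0.149, and 1 of them lay above that percentile. Relative to the control mean of each gene, the median of the 17 enzymes was 0.26, -0.20 and -0.05 in the control livers, -0.01 and -0.60 in the 2 week livers, and -0.54 and -0.04 in the 4 week livers, so 1 array at each time after Cre stood at the control level and the other below every control.

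The enzymes differed between arrays in the same direction. Between the 2 week arrays, replicate 1 was higher than replicate 2 for 16 of 17 enzymes, with a median difference of 0.65, while 47.1% of all genes were higher and the median of all genes was 0. Between the 4 week arrays, replicate 1 was higher for 2 of 17, with a median of -0.40, and for 42.7% of all genes. The control livers also differed in this way. Replicate 1 was higher than replicate 2 for 16 of 17 enzymes (median 0.46; 45.4% of all genes) and higher than replicate 3 for 17 of 17 (median 0.32). Ggps1 was the exception at 2 weeks, at -0.42. These counts describe pairs of mice and were given no test, and the genes of a pair share the same 2 arrays.

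**Figure D3:**
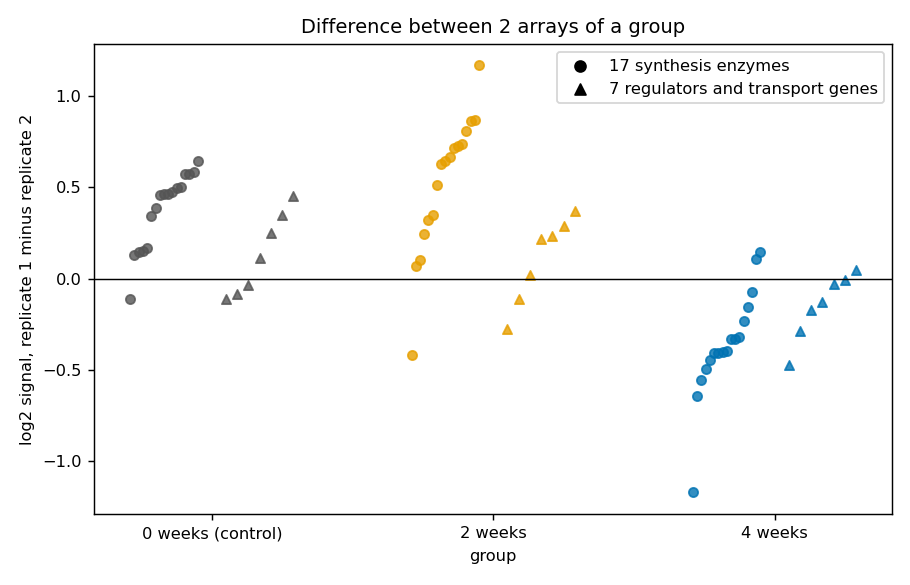
Difference in log2 signal between replicate 1 and replicate 2 of each group (vertical axis), 1 point per gene, sorted within each set: circles are the 17 synthesis enzymes and triangles the 7 regulators and transport genes. At 0 and 2 weeks 16 of 17 enzymes lie above 0, and at 4 weeks 2 of 17 do.

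Srebf2, which encodes the factor itself, was at 9.81, 9.56 and 9.52 in the control livers, 10.12 and 9.90 in the 2 week livers, and 9.84 and 10.13 in the 4 week livers. The arrays after Cre lay above the controls, although 1 control array and 1 array at 4 weeks were nearly equal. Its log2 fold change was 0.38 at 2 weeks (95% interval 0.05 to 0.71, adjusted p = 0.170) and 0.35 at 4 weeks (0.02 to 0.69, adjusted p = 0.176), so it did not pass. Scap, the escort, lay between 10.09 and 10.27 on all arrays, with log2 fold changes of 0.07 and 0.12. These are RNA levels, and the arrays say nothing of how much SREBP-2 was cleaved.

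Insig1 and Insig2 encode related retention proteins with different control: Insig1 is itself a target of SREBP, whereas Insig2 is not, and a liver transcript of Insig2 is known to be lowered by insulin. Insig2 was at 11.07, 11.18 and 10.97 in the control livers, 12.53 and 12.64 in the 2 week livers, and 12.50 and 12.67 in the 4 week livers. The arrays after Cre lay far above all controls, and both times stood at the same level. Insig2 rose 2.85-fold at 2 weeks (log2 1.51, SE 0.09, adjusted p = 0.00400) and 2.86-fold at 4 weeks (log2 1.52, SE 0.09, adjusted p = 0.00284). It was the member with the smallest adjusted p at both times, and it passed with any 1 array left out.

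Insig1 was at 12.90, 12.56 and 12.70 in the control livers, 12.71 and 12.47 in the 2 week livers, and 12.73 and 12.68 in the 4 week livers, within or just below the controls' range. Its log2 fold change was -0.13 at 2 weeks (95% interval -0.43 to 0.16) and -0.02 at 4 weeks (-0.31 to 0.28). The difference between the genes was read within each array, where Insig2 minus Insig1 averaged -0.0631 ± 0.179 (SD, n = 4) after Cre and -1.65 ± 0.240 (SD, n = 3) in controls. Equal signal does not mean equal RNA, so only the change of 1.59 log2 units in this difference is read. All 4 arrays after Cre were higher in it than the 3 controls, and the two-sided exact permutation p was 0.0571, the smallest that 35 orders of these arrays allow. Since Insig2 alone already separated these arrays and Insig1 did not pass, this p is no evidence beyond the Insig2 values.

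The Insig promoters are shown to set the gene that rose beside its relative. RefSeq lists 3 start windows for Insig2, and the one printed, chr1:121332540-121332839 on the minus strand, is the only one of them that holds any of the motifs searched: CCAAT boxes beginning 136, 46 and 29 bases before the start, in capitals. The Insig1 window, chr5:28071162-28071461 on the plus strand, holds a CCAAT box 216 bases and an E-box, CACGTG, 101 bases before the start, also in capitals. Neither holds TCACNCCAC, and no match says only that these letters are not in this window.
Insig2 promoter: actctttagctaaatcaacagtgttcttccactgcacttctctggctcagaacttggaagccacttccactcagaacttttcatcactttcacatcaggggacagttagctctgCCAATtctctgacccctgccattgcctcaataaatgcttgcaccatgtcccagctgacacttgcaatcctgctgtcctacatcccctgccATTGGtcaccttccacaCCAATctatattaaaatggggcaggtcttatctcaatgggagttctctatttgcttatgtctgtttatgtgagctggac
Insig1 promoter: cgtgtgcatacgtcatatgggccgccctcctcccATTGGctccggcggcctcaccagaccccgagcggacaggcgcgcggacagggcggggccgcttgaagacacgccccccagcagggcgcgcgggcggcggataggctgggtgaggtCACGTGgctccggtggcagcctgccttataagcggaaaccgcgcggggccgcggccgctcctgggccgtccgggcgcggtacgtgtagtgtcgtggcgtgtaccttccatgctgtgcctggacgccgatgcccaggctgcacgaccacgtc

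Across the 19 measured genes with a window, CCAAT was found on either strand in 18, all but Scap, and in 41.1% of the 27025 genes. The E-box was found in 5 of the 19 (Dhcr7, Hsd17b7, Insig1, Sc5d and Scap) and in 8.09% of genes. No window was listed for Fdps, Sqle, Fdft1, Stard4 and Npc1. CCAAT boxes were found in windows of genes that rose, of genes that fell and of genes that did not pass. Ggps1 has them 201, 160 and 55 bases before its start, and Ebp 170 and 55 bases before its start.

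**Figure D4:**
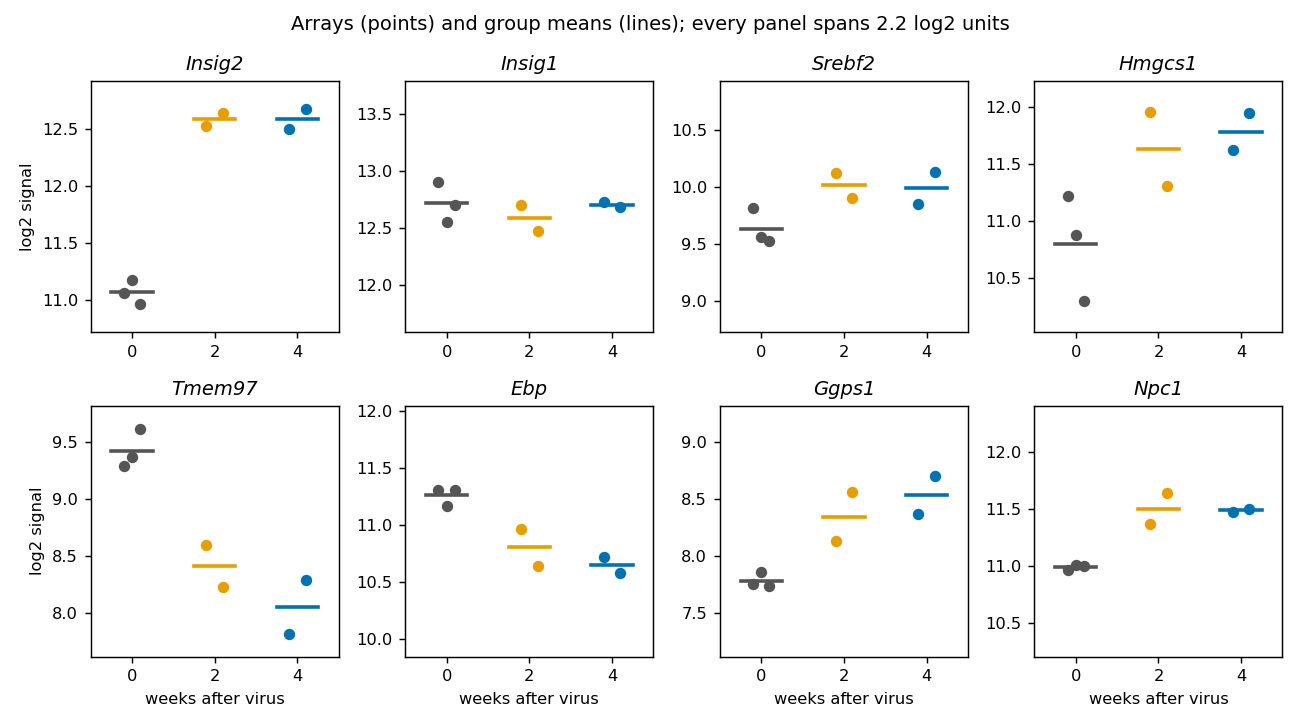
Log2 signal (vertical axis, every panel spanning 2.2 units) of 8 genes on each array (points) at 0, 2 and 4 weeks, with group means as lines. Insig2 separates fully and holds its level, and Insig1 stays within its control range or just below it. Tmem97, Ebp, Ggps1 and Npc1 separate from the controls at both times. Hmgcs1 and Srebf2 also lie above the controls at both times, more narrowly, and passed at neither.

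Tmem97 encodes a small membrane protein, also known as a sigma receptor, that SREBP induces and that in human cells binds NPC1 and lowers its amount. Its log2 signal was 9.29, 9.37 and 9.62 in the control livers, 8.60 and 8.23 in the 2 week livers, and 7.82 and 8.29 in the 4 week livers. Every array after Cre lay below every control. Tmem97 fell 2.02-fold at 2 weeks (log2 -1.01, SE 0.19, adjusted p = 0.0438) and 2.58-fold at 4 weeks (log2 -1.37, SE 0.19, adjusted p = 0.0177). With any 1 control array, replicate 2 at 2 weeks or either 4 week array left out, its adjusted p at 2 weeks was 0.0686 to 0.159. With any 1 control or 4 week array left out, that at 4 weeks was 0.0563 to 0.0854. Its promoter window, chr11:78550686-78550985 on the minus strand, is shown as that of the member that fell furthest, with CCAAT boxes 147 and 40 bases before the start in capitals.
Tmem97 promoter: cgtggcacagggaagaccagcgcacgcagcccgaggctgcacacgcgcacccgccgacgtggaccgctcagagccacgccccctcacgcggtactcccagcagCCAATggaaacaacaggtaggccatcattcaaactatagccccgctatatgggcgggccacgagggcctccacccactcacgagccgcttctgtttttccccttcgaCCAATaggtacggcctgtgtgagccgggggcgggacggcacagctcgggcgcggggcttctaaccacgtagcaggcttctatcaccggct

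Npc1, which carries cholesterol out of late endosomes and lysosomes, was at 10.97, 11.01 and 11.00 in the control livers, 11.37 and 11.64 in the 2 week livers, and 11.48 and 11.50 in the 4 week livers. All arrays after Cre were above all controls, whose SD was 0.0200. Npc1 rose 1.42-fold at 2 weeks (log2 0.51, SE 0.08, adjusted p = 0.0329) and 1.41-fold at 4 weeks (log2 0.50, SE 0.08, adjusted p = 0.0261). With any 1 control array left out, its log2 fold change at 2 weeks was 0.50 to 0.52 (adjusted p = 0.103 to 0.114). That at 4 weeks was then 0.48 to 0.50 (adjusted p = 0.0834 to 0.0903). Without replicates 1 and 2 at 2 weeks in turn, the 2 week value was 0.65 and 0.37. Without replicates 1 and 2 at 4 weeks in turn, the 4 week value was 0.51 and 0.48. Stard4, a cytosolic sterol carrier, was at 9.96, 9.50 and 9.70 in the control livers, 9.91 and 9.62 in the 2 week livers, and 10.04 and 10.17 in the 4 week livers. Its log2 fold change was 0.05 at 2 weeks and 0.38 at 4 weeks (adjusted p = 0.199), which did not pass, although the 4 week arrays lay above the controls.

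Between 4 weeks and 2 weeks, 0 of the 24 genes were called by limma, as was 0.00595% of all genes (1 gene). At an unadjusted p under 0.05, 1 of the 24 lay below the threshold, Dhcr7 with a log2 fold change of -0.33 (adjusted p = 0.672), against 7.43% of all genes. The log2 fold changes of the 24 between 4 weeks and 2 weeks ran from -0.35 in Tmem97 to 0.34 in Stard4. For Insig2 it was 0.00 (95% interval -0.23 to 0.24).

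Genes reported as targets of miR-33 were read next, since the microRNA is made from the Srebf2 transcript and Npc1 is among them. At 2 weeks, 6 of 13 measured targets rose and 0 fell (46.2% higher, against 3.46% of all genes), and at 4 weeks 7 rose and 0 fell (53.8% higher, against 5.15%). Without Npc1 the counts were 5 and 6 of 12. Crot, the peroxisomal enzyme that passes fatty acyl groups to carnitine, was at 11.85, 12.17 and 12.04 in the control livers, 13.29 and 13.29 in the 2 week livers, and 13.29 and 13.28 in the 4 week livers. The arrays after Cre were nearly equal to each other, and Crot was 2.42-fold and 2.41-fold higher (adjusted p = 0.00680 and 0.00573). Abca1, which loads cholesterol onto apolipoprotein A-I, was at 10.66, 10.59 and 10.51 in the control livers, 11.24 and 11.18 in the 2 week livers, and 11.40 and 11.14 in the 4 week livers.

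Abca1 rose by 0.62 log2 units at 2 weeks (adjusted p = 0.0256) and 0.68 at 4 weeks (adjusted p = 0.0163). Irs2, an insulin signalling adaptor, rose by 1.21 at 2 weeks (adjusted p = 0.0126) and 0.70 at 4 weeks (adjusted p = 0.0282), and Atp8b1, a canalicular lipid flippase, by 0.67 and 0.93 (adjusted p = 0.0435 and 0.0164). Not every listed target was called higher. Over both times 4 of the 13 lay below 0, the lowest at -0.24, and none of these passed. Pck1 and G6pc, enzymes of glucose production, averaged 0.09 and -0.23 over both times and did not pass. The counts depended on single arrays, as did those of all genes. At 2 weeks, 2, 1 and 0 targets were called without control replicates 1, 2 and 3. Of all 16819 genes, 190, 127 and 41 were called in these fits, against 997 with every array. At 4 weeks, 3, 2 and 1 targets were called without the same replicates. So were 457, 312 and 294 of all genes, against 1643 with every array. Many microRNAs are made by Dicer, and the part of miR-33 was not tested.

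**Figure D5:**
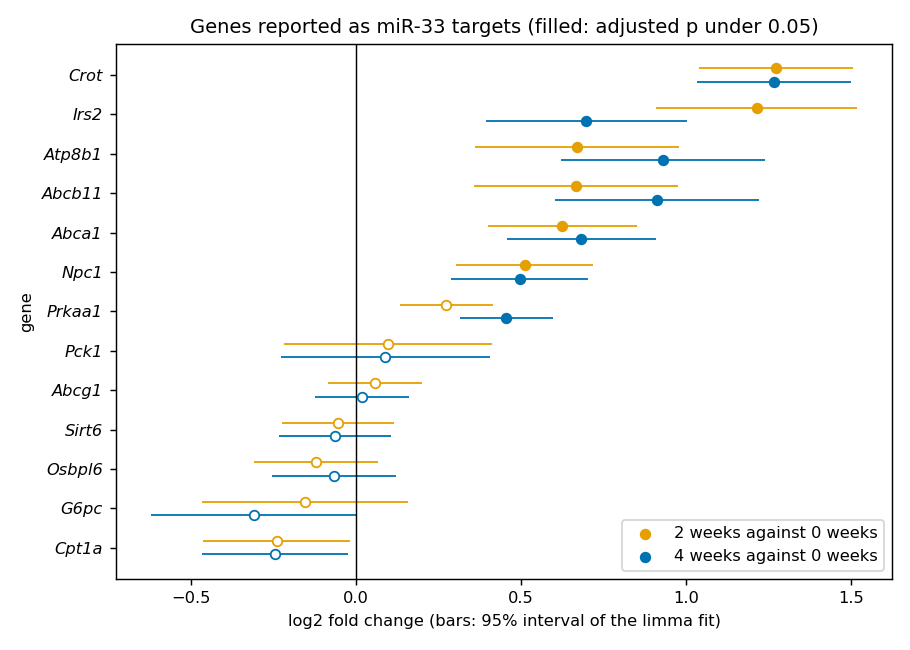
Log2 fold change of the 13 measured genes reported as miR-33 targets at 2 weeks and at 4 weeks against 0 weeks, with the 95% interval of the limma fit; filled points passed an adjusted p of 0.05. Crot stands highest at 4 weeks at 1.27, 7 genes are filled at 4 weeks, and Cpt1a, G6pc, Osbpl6 and Sirt6 lie below 0 without passing.

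The rest of the pathway was described by the mean of 2 and 4 weeks against 0 weeks. Of 17 other measured genes of cholesterol metabolism and reported SREBP-2 targets, 0 rose and 6 fell (6.12% of all genes were called lower), with a median log2 fold change of -0.19, against 0.00 for all genes. Those that fell included Lpin1, a phosphatidate phosphatase (-2.75, SE 0.41, adjusted p = 0.0152), Cyb5r3, the reductase that feeds electrons to sterol oxidases (-0.58, adjusted p = 0.0198), Hsd17b12, a fatty acid elongation enzyme (-0.48, adjusted p = 0.0193), and Stard3, a late endosomal sterol carrier (-0.46, adjusted p = 0.0116). Cyb5a, the electron carrier of the same oxidases, was at -0.19 and Fads2 at -0.06, and neither passed. Lpin1 and Hsd17b12 also serve triglyceride and fatty acid synthesis.

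Of 15 measured genes of SREBP processing and sterol sensing, 2 rose and 1 fell, so that 20% of the list was called, against 12.9% of all genes. Paqr3, which anchors Scap and SREBP to the Golgi, was at 8.11, 8.14 and 8.10 in the control livers, 7.10 and 7.05 in the 2 week livers, and 6.89 and 6.76 in the 4 week livers. It fell by 1.17 log2 units over both times (SE 0.05, adjusted p = 0.000676), with all arrays after Cre far below the controls. Erlin2, an endoplasmic reticulum protein that takes part in the degradation of sterol-regulated proteins, rose by 0.71 (adjusted p = 0.0153), and Sec24c, a coat protein of the vesicles that leave the endoplasmic reticulum, by 0.32 (adjusted p = 0.0393). Pgrmc1 (0.11) and Sar1b (-0.07) did not pass.

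On the isoprenoid branch toward dolichol, ubiquinone and prenylated proteins, where Ggps1 stands, 2 of 19 genes rose and 4 fell, against 6.79% of all genes called higher and 6.12% called lower. Coq3, a methyltransferase of ubiquinone synthesis, was 2.41-fold higher (log2 1.27, adjusted p = 0.00254). Coq2, which joins the isoprenoid tail to the ubiquinone ring, was at -0.38, Dhdds, which builds the dolichol chain, at -0.36, and Zmpste24, a protease of prenylated proteins, at -0.33, and all 3 passed. Nus1 (0.14) and Coq5 (-0.13) did not pass. Of 26 measured genes of sterol trafficking and efflux, 6 rose and 2 fell, against the same shares of all genes, 6.79% higher and 6.12% lower. Lipa, the lysosomal lipase that frees the cholesterol Npc1 exports, rose by 0.80 log2 units (adjusted p = 0.00632), Gramd1c, a sterol transfer protein, by 0.65, and Stard5, a cytosolic sterol carrier, fell by 0.61 (adjusted p = 0.00822). Ces1d (-0.02) and Lcat (0.07) did not pass.

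Markers of the liver's cell types were read beside these results. At 2 weeks 0 of the measured markers of any cell type listed passed, where 5.93% of all genes were called. At 4 weeks 1 of 8 endothelial and 1 of 5 cholangiocyte markers rose, where 5.15% of all genes were called higher. The mean log2 signal of the 9 hepatocyte markers was 13.47 to 13.50 at 2 weeks and 13.47 to 13.51 at 4 weeks, against 13.57 to 13.60 in controls. The 11 Kupffer cell and macrophage markers averaged 8.50 to 8.85 and 8.43 to 8.77, against 8.42 to 8.73 in controls, and the 8 endothelial markers 9.07 to 9.49 and 9.36 to 9.49, against 9.28 to 9.38. The 9 stellate cell markers lay above the controls at both times, at 8.89 to 8.95 and 8.84 to 8.91 against 8.70 to 8.76. The 5 cholangiocyte markers were at 6.60 to 6.76 and 6.66 to 6.74, against 6.52 to 6.63, and the 6 lymphocyte and neutrophil markers at 5.72 to 5.84 and 5.73 to 5.81, against 5.73 to 5.79. Over both times the hepatocyte marker Tat fell by 0.62 log2 units, and the stellate marker Pdgfrb (0.31) and the cholangiocyte marker Sox9 (0.37) rose. The mean of the hepatocyte markers was lower, and that of the stellate markers higher, on every array after Cre than on every control array, although 0 of the 9 stellate markers passed at either time. Tat was the lowest of the 9 hepatocyte markers, whose median log2 fold change over both times was only -0.04. The part of these markers in the results was not tested.

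Genes of the circadian clock also moved with the groups. Of 19 measured clock genes, 3 rose and 8 fell at 2 weeks, against 3.46% of all genes called higher and 2.47% called lower. At 4 weeks 4 rose and 8 fell, against 5.15% of all genes higher and 4.62% lower, and the median log2 fold change over both times was -0.77, against 0.00 for all genes. Over both times the log2 fold change was -2.83 for Wee1, -2.24 for Usp2, -2.04 for Dbp and -1.25 for Per3, all of which passed. Bhlhe40 (-0.92) and Hlf (-0.40) did not. Of the 19 clock genes, 1 was called higher at 4 weeks than at 2 weeks, the only gene called in that comparison among all 16819. Cholesterol synthesis in liver follows the time of feeding and of day, and the labels do not state the hour of harvest. The part of the clock genes' change in the values of the sterol genes was not tested.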

How the data were processed

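RNA of 7 whole livers was hybridised to Affymetrix arrays, 1 liver to an array, after biotin labelling for whole transcripts, per the labels' protocols. The authors deposited log2 signals for each probe set, from 3.15 to 14.7. The submitters' processing notes name GCOS 1.4 and give it no role. How probes were summarised, background-corrected and normalized is not given in the sources used. Array medians ran from 7.07 to 7.09, so the authors' values were already at a common level. No detection call or scan date came with them. The log2 scale was read from the values.

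The platform annotation gave 1 symbol for 17709 of 21093 probe sets, several for 187 and none for 3197. RefSeq (GRCm38.p6) held 17648 of the named ones by gene number and changed 0 symbols. For each of the 16819 genes the probe set with the highest mean was kept. A model of the 3 groups was fitted with limma 3.58.1 in R 4.3.3 (lmFit and eBayes, two-sided, Benjamini-Hochberg over 16819 genes, called at an adjusted p under 0.05), with 4 residual and 1.69 prior degrees of freedom. Values were neither rescaled nor filtered. Intervals are 95%, and the number of arrays limits the precision. Per the labels, arrays within a group are biological replicates. The limma step alone was tested on simulated data, drawn independently for each gene.

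The 28 genes and the lists beside them were chosen with earlier results of these data known, so their counts are set beside those of all genes and are not independent evidence. All members and Dicer1 were named, and of each other list up to 4 passing genes, by smallest adjusted p, as well as 2 at most that did not pass, by highest level, in a comparison described. Promoter and microRNA sequences are RefSeq's. Alternatives were quantile normalization, median centring, a dim filter at the 25th percentile, the mean of a gene's probe sets, every probe set, an intensity trend, only the groups compared, a replicate block, and each array left out.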

Additional observations from a re-analysis of the deposited data

How the results depend on the processing

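The counts of called members, 3 at 2 weeks, 5 at 4 weeks, 5 over both times and 0 between 4 and 2 weeks, were the same under quantile normalization, median centring, the dim filter, the mean of probe sets, every probe set and the intensity trend, with no change of sign among the 13 called member values in any alternative. With each control array left out in turn, 1 member was called at 2 weeks, 1 at 4 weeks and 1 or 2 over both times. All genes called in those fits numbered 41 to 190, 294 to 457 and 570 to 854, against 997, 1643 and 2171 with every array. Any fit with 1 array left out has fewer residual degrees of freedom. Where it leaves 1 array in a group, that array is assumed to vary like the other groups. Fitted on the 0 and 2 week arrays only, 1 member, Insig2, was called at 2 weeks, with 276 of all genes. On the 0 and 4 week arrays only the count stayed at 5, with 1948 of all genes called. With a replicate block, 0 members were called at 2 weeks, 0 at 4 weeks and 1 over both times. Of all 16819 genes, that block left 0, 2 and 5 called. The labels name no pairing of mice by replicate number. Over all genes, the correlation of the replicate 1 minus replicate 2 differences was 0.11 between 2 and 4 weeks. It was 0.00 between 2 weeks and controls and -0.07 between 4 weeks and controls. Such correlations cannot show that no pairing existed. Insig2 had adjusted p of 0.0716 and 0.0762 with that block at 2 and 4 weeks and passed under the other alternatives. The count of miR-33 targets over both times was 7, where 2171 of all genes were called, and 4 without control replicate 2, where 570 were. It was 0 with the replicate block at 2 weeks, 4 weeks and over both times, where 0, 2 and 5 of all genes were called. Fitted on the 0 and 4 week arrays only, 7 targets were called higher and 1 lower at 4 weeks, where 1948 of all genes were called. The alternatives for these targets were chosen after seeing the data. No detection limit could be set from these values, and 2 arrays in a group limit the precision.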

Other observations

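Neighbouring lipid pathways were described by the mean of 2 and 4 weeks against 0 weeks. Of 18 measured genes of bile acid synthesis, the main route by which the liver disposes of cholesterol, 4 rose and 1 fell, against 6.79% of all genes called higher and 6.12% called lower. Cyp7a1, the rate-limiting enzyme, fell by 2.71 log2 units (SE 0.46, adjusted p = 0.0205) and was at 10.16 and 9.74 at 2 weeks and 8.79 and 10.75 at 4 weeks, against 12.36, 12.68 and 12.67 in controls. Nr0b2, a repressor of that gene, rose by 1.53 log2 units (adjusted p = 0.0166), Hsd3b7, an enzyme that follows Cyp7a1, by 1.13 (adjusted p = 0.00363) and Akr1d1, a reductase of the same chain, by 0.41 (adjusted p = 0.0119). Cyp7b1, of the alternative route, was at -0.79 (adjusted p = 0.0779) and Scp2, a peroxisomal thiolase and sterol carrier, at -0.33 (adjusted p = 0.0647), and neither passed.

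Of 19 measured genes of SREBP-1 and fatty acid synthesis, 2 rose and 6 fell, against the same shares of all genes, with a median log2 fold change of -0.19, against 0.00 for all genes. Thrsp, a lipogenic nuclear protein, was at 9.62 and 10.05 at 2 weeks and 9.83 and 9.97 at 4 weeks, against 12.86, 12.99 and 12.90 in controls, and was 8.27-fold lower (adjusted p = 0.000676). Elovl6, a fatty acid elongase, was 2.06-fold lower (adjusted p = 0.00419) and Dgat2, a triglyceride synthesis enzyme, 1.28-fold lower (adjusted p = 0.0210). Mlxipl, a glucose-responsive lipogenic factor, rose 1.50-fold (adjusted p = 0.0193). Scd1, the fatty acid desaturase, was at -0.35 (adjusted p = 0.146) and Fads2 at -0.06, and neither passed. Whether these lists and the sterol enzymes moved together was not tested.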
